A study of Mus musculus with 57 samples.

Results

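Of 57 single kidney cells, 9 carried transcripts of both ends of the early nephron, Wt1 of the proximal end together with at least 1 of 5 distal genes. The cells were chosen by these measured values: a cell was taken as dual where Wt1 and at least 1 of Sox9, Dll1, Papss2, Pou3f3 and Dkk1 each reached an RPKM of 20 (RPKM being the read density over a gene's length, scaled to the mapped reads of the library). Over all 57 cells, 36 reached this level for Wt1 and 23 for a distal gene. Independence of the Wt1 and the distal condition would give 14.5 dual cells, and the difference from 9 was not tested. The 9 dual cells made up 15.8% of all cells (exact Clopper-Pearson 95% interval 7.48 to 27.9%, which covers the sampling of cells from this pool only). They were set beside 26 cells with Wt1 but none of the distal genes at that level (Wt1-only cells) and 14 cells with a distal gene but not Wt1 (distal-only cells), all with the kidney transcription factor Pax8 at RPKM 5 or more. The remaining 8 cells entered no comparison, 7 of them with Pax8 below RPKM 5 and 1 that met neither condition.

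Every cell came from the same pool of 2 kidneys, taken at postnatal day 4 from mice of mixed background and unknown sex that carry the transgene Tg(Crym-EGFP)82Gsat, in which regulatory sequence of Crym drives green fluorescent protein. Cells sampled as renal vesicle were sorted by flow cytometry, captured singly on a microfluidic chip and sequenced. The series aims at an atlas of expression in the developing kidney and has no treatment and no second genotype. The classes were cut from the measured values of cells from 1 pool, so cells are not replicates and all differences between classes are descriptions without a test.

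The renal vesicle is the first epithelial body of the nephron, formed when cap mesenchyme condenses and becomes epithelial. It soon acquires a distal side, next to the ureteric tip that it will join, and a proximal side, from which podocytes and parietal epithelium arise. Wt1 encodes a zinc finger transcription factor that is kept in podocytes. Distal cells express the Notch ligand Dll1, the sulfate donor synthase Papss2, the transcription factors Sox9 and Pou3f3 and the secreted Wnt antagonist Dkk1, and Notch signalling is known to take part in forming proximal segments.

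The libraries of the dual cells covered most of the range of quality seen in the pool. Relative depth, read from the smallest steps between low RPKM values and set to 1 in the median cell, was 0.323 to 1.49 in dual cells and 0.323 to 1.55 over all cells. The number of genes detected at RPKM 1 or more was 2857 to 6502 in dual cells (median 5379), 3692 to 5713 in Wt1-only cells (median 4307) and 2809 to 5473 in distal-only cells (median 4368.5), and 6 of the 9 dual cells lay above both medians. Cell 41 had the most detected genes and cell 44 the fewest among the dual cells, while cell 30 had the lowest depth of all 57 cells. The number of detected genes was set as a covariate in 1 alternative below, but its part in the differences was not tested. The presence of more than 1 cell in a chamber was not tested either.

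The defining genes chose the cells, so their values describe the class and support nothing. Wt1 (chromosome 2, 104966686 to 105013771, build mm9) was at RPKM 29.2, 131, 149, 21.5, 393, 40.8, 31.4, 129 and 276 in dual cells 12, 21, 22, 23, 30, 36, 41, 44 and 54. Its median of 129 lay below that of the Wt1-only cells (252, range 32.4 to 1382), and 4 dual cells (12, 23, 36 and 41) were below 50. The highest Wt1 value in a distal-only cell was 10.9, so the step across the threshold of 20 was from 10.9 in cell 47 to 21.5 in cell 23. Papss2 (chromosome 19, 32670205 to 32741677) was the distal gene that placed most cells in the class. It was at RPKM 75.9 in cell 12, 78.3 in cell 21, 357 in cell 23, 119 in cell 41, 502 in cell 44 and 66.5 in cell 54, and below 1 in the other three. Dll1 (chromosome 17, 15504318 to 15512787) was at 71.6 in cell 22, 30.6 in cell 23, 362 in cell 30 and 77.2 in cell 41, and at 1.15 or less elsewhere.

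The remaining distal genes were rarer in dual cells. Sox9 (chromosome 11, 112643524 to 112649071) reached 51.9 in cell 36 and 205 in cell 41, and stood just below the threshold at 14.7 in cell 23 and 13.4 in cell 21. Pou3f3 passed only in cell 36, at 21.1. Dkk1 passed only in cell 41, at 116. In the table as a whole the values on either side of the threshold were 14.7 and 21.7 for Sox9, 1.15 and 30.6 for Dll1, 15.1 and 20.8 for Pou3f3, 17.2 and 32.7 for Papss2 and 5.88 and 40.2 for Dkk1.

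**Figure D1:**
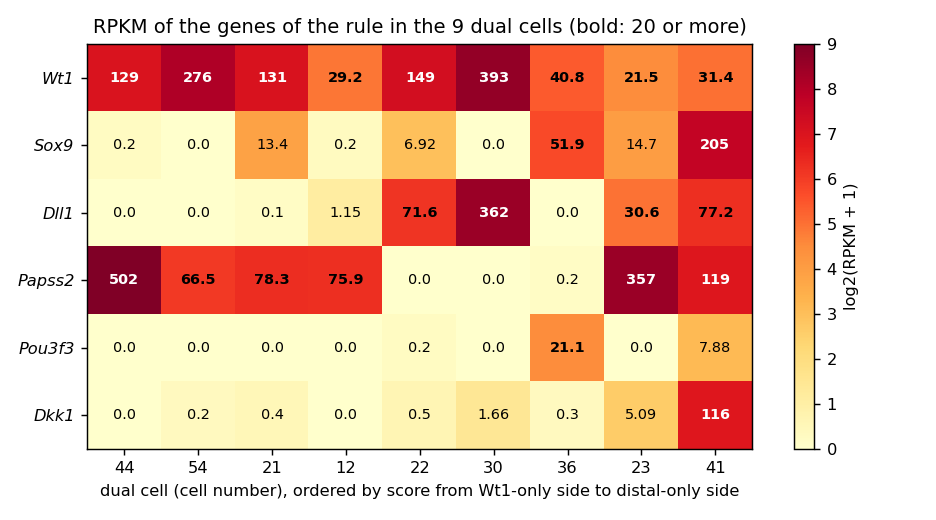
RPKM of the 6 genes of the rule (rows) in the 9 dual cells (columns, by cell number), with colour on a log2(RPKM + 1) scale and values of 20 or more in bold. Cells 44, 54, 21 and 12 pass by Papss2 alone, cells 22 and 30 by Dll1 alone, and cell 41 passes with 4 distal genes.

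Most dual cells met the distal condition through 1 gene. In 6 dual cells a single distal gene reached RPKM 20, in cells 23 and 36 there were 2, and in cell 41 there were 4. Among the 14 distal-only cells, 1 cell had 1 such gene, 3 had 2, 2 had 3, 4 had 4 and 4 had all 5. Pax8 was at RPKM 15.8 in cell 54, 264 to 416 in 7 cells and 829 in cell 44, close to the medians of 315 in Wt1-only and 287 in distal-only cells. Without Papss2 in the rule 5 dual cells were left, and a threshold of 50 also left 5.

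On genes outside the rule the dual cells did not form 1 intermediate group. Some read as Wt1-only cells and some as distal-only cells, and how many fell on each side depended on the threshold of the rule. Cells 21 and 22 were high for genes of both classes, for distal-only genes by a small margin over the Wt1-only range. Of 9644 genes with a mean RPKM of at least 1 and detection in at least 5 of the 49 cells, 257 (2.66%) differed between Wt1-only and distal-only cells by 2 or more in mean log2(RPKM + 1), a scale that understates the change of low genes. Wt1-only cells were higher for 120 of them (1.24% of all genes analysed) and distal-only cells for 137 (1.42%). The dual mean lay between both reference means for 86.0% of the 257 genes and was nearer the Wt1-only mean for 60.7%. These genes were chosen for a large difference between the reference means, and that choice favours a dual mean in between. The distal-only mean rests on 14 cells and the Wt1-only mean on 26, so the choice can also favour a place nearer Wt1-only. The share nearer Wt1-only therefore does not show which class the dual cells resemble. For genes of the Wt1-only side, 62 of 120 were nearer the Wt1-only mean, and for genes of the distal side 94 of 137 were. At a difference of 3 the share nearer Wt1-only was 77.3% of 44 genes, and at a difference of 1 it was 54.0% of 1858.

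The mean over a class hides how the single dual cells were placed. Each cell was scored by its mean log2(RPKM + 1) over the Wt1-side genes minus that over the distal-side genes, reference cells with genes chosen without them. The score was 1.26 in the median Wt1-only cell (range -0.12 to 2.67) and -1.23 in the median distal-only cell (range -2.48 to 0.66). It was 1.56 in dual cell 44, 1.50 in cell 54, 1.14 in cell 21, 0.84 in cell 12 and 0.72 in cell 22, all above the highest distal-only cell and within the Wt1-only range. It was -0.43 in cell 30, -0.71 in cell 36, -1.38 in cell 23 and -2.27 in cell 41, all below the lowest Wt1-only cell and within the distal-only range. Of the reference cells, 24 of 26 Wt1-only and 13 of 14 distal-only cells were nearer their own class. With the threshold at 10 there were 12 dual cells, of which 8 were nearer the Wt1-only class. With the threshold at 50 there were 5, of which 4 were nearer the Wt1-only class. Of the dual cells scored as distal, cells 23, 41 and 36 had Wt1 near the cut, at RPKM 21.5, 31.4 and 40.8. Cell 30 had the lowest depth of all cells. Cell 12, with Wt1 at 29.2, scored on the Wt1-only side. The part of the Wt1 level in the placement was not tested.

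**Figure D2:**
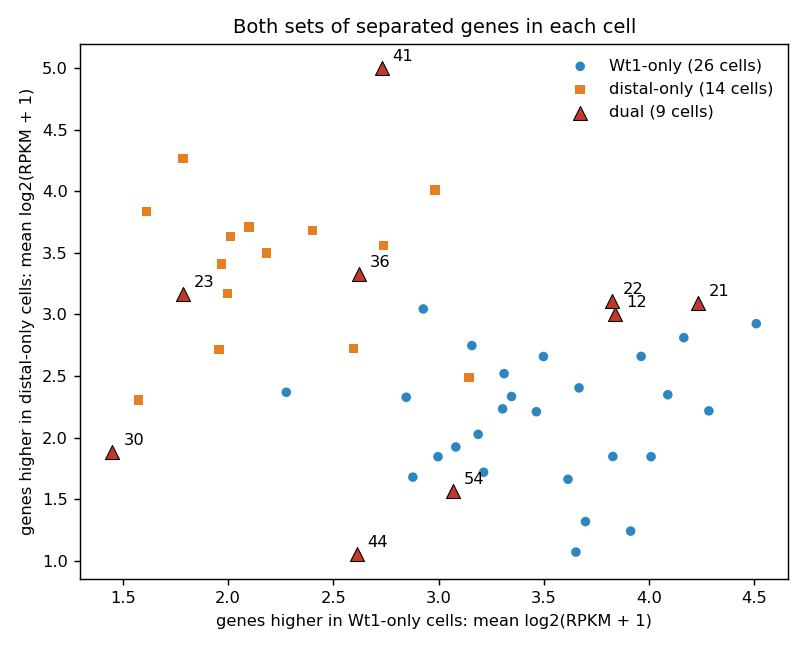
Mean log2(RPKM + 1) of the 120 genes higher in Wt1-only cells (x axis) against that of the 137 genes higher in distal-only cells (y axis), 1 point per cell. Dual cells (numbered triangles) lie apart from each other, with cells 21 and 22 high on both axes, cell 41 highest on the distal axis at 5.00 and cells 30 and 44 low on both.

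The parts of the score showed that cells with like scores differed in what they carried. Cells 21 and 22 were high on both sides: their Wt1-side means of 4.23 and 3.83 exceeded the highest distal-only cell (3.15), and their distal-side means of 3.09 and 3.11 exceeded the highest Wt1-only cell (3.04). Those distal-side means were still below the distal-only median of 3.53. The libraries of cells 21 and 22 had 5656 and 5524 detected genes, and the part of that number was not tested. Cell 12 followed these cells at 3.84 and 3.00. Cells 44 and 54 kept distal-side means of 1.05 and 1.57 at Wt1-side means of 2.61 and 3.07, all below the Wt1-only medians of 2.23 and 3.48. Cell 41 had a distal-side mean of 5.00, above all reference cells (highest 4.27), at a Wt1-side mean of 2.73 that lay within the ranges of both classes. The library of cell 41 had 6502 detected genes, more than any reference cell (highest 5713), and that of cell 44 had 2857, the fewest of the dual cells. The part of these numbers was not tested. Cells 36 and 23 paired distal-side means of 3.33 and 3.16 with Wt1-side means of 2.62 and 1.78. Cell 30, the shallowest library, was low on both sides at 1.45 and 1.88 although its Wt1 value was the highest of the 9.

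Other measures of likeness use the same cells and are no independent evidence. Among the 5 nearest reference cells by Spearman correlation over the 500 most variable genes, Wt1-only cells held 5 places for cell 54, 4 for cells 12, 21 and 44, 3 for cells 22 and 30, 2 for cell 36 and 0 for cells 23 and 41. Together that is 25 of 45 places (55.6%), where Wt1-only cells make up 65.0% of the reference pool, hold 85.4% of places around Wt1-only cells and 35.7% around distal-only cells. Over the genes with a fold of at least 10 in the authors' deposited table of proximal against distal cells (73 proximal and 53 distal genes), the same kind of score was 2.66 in cell 22, 2.53 in cell 44, 2.06 in cell 54, 1.85 in cell 21 and 1.18 in cell 12. It was -0.38 in cell 30, -0.97 in cell 36, -2.58 in cell 41 and -3.36 in cell 23, beside medians of 2.69 in Wt1-only and -2.90 in distal-only cells. Of the dual cells, 22 and 23 are among the 28 cells of the authors' deposited table.

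Proximal genes were present in most dual cells at reduced means, and 6 late podocyte genes were not detected, as in most Wt1-only cells. Pmp22, which encodes a membrane protein best known from myelin, was at RPKM 313, 490, 286, 0.45, 95.8, 63.0, 1.44, 1756 and 51.6 in cells 12, 21, 22, 23, 30, 36, 41, 44 and 54. Only cells 23 and 41 were as low as the median distal-only cell (3.02), and the mean log2 difference of the class was 3.22 from distal-only and -1.55 from Wt1-only cells. Tmem100, a transmembrane protein, was uneven as well, with 244 in cell 12, 343 in cell 21, 296 in cell 22 and 39.7 in cell 54, and no more than 22.2 elsewhere.

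Sulf1, a sulfatase that trims heparan sulfate, was detected in cells 12 (15.1), 21 (9.30), 22 (42.3) and 44 (59.8) and in none of the 14 distal-only cells. The forkhead gene Foxc2 (chromosome 8, 123640071 to 123642794), an early proximal regulator, stood at the Wt1-only level, with a mean log2 difference of 0.08 from Wt1-only and 2.72 from distal-only cells. It was at 100 in cell 54, 68.0 in cell 30, 52.6 in cell 36, 18.7 in cell 22 and 15.6 in cell 12, so it was also present in 2 cells scored as distal. The other genes with the largest Wt1-only excess, the alpha-synuclein partner Sncaip, the small GTPase Rasl11a, tissue plasminogen activator Plat, the imprinted RNA H19, the calmodulin regulator Pcp4 and Tmem37, all had dual means between both classes. Their dual means lay at 0.47 to 0.77 of the way from the distal-only mean (0) to the Wt1-only mean (1). Choosing genes by their reference difference favours such a place.

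Of 26 listed proximal and podocyte genes, 18 could be analysed. None was 2 or more above or below the Wt1-only mean in dual cells (all genes: 1.91% above and 0.715% below), and 5 were 2 or more above the distal-only mean (all genes: 2.43%), among them Pmp22, Tmem100, Sulf1 and Foxc2. The median difference over the list was -0.78 from Wt1-only and 0.88 from distal-only cells, where the medians over all genes were 0.09 and 0.10. The late podocyte genes Podxl, Nphs1, Synpo, Ptpro, Nebl and Clic5, for sialomucin, slit diaphragm and foot process proteins, were detected in 0 of 9 dual cells, and in 2 to 5 of 26 Wt1-only cells each. At that share few or no detections are to be expected among 9 cells, so the 0 does not set the dual cells apart. Of other listed podocyte genes, Cd2ap was detected in 7 of 9 dual cells (median 34.3) and Plce1 in 1.

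**Figure D3:**
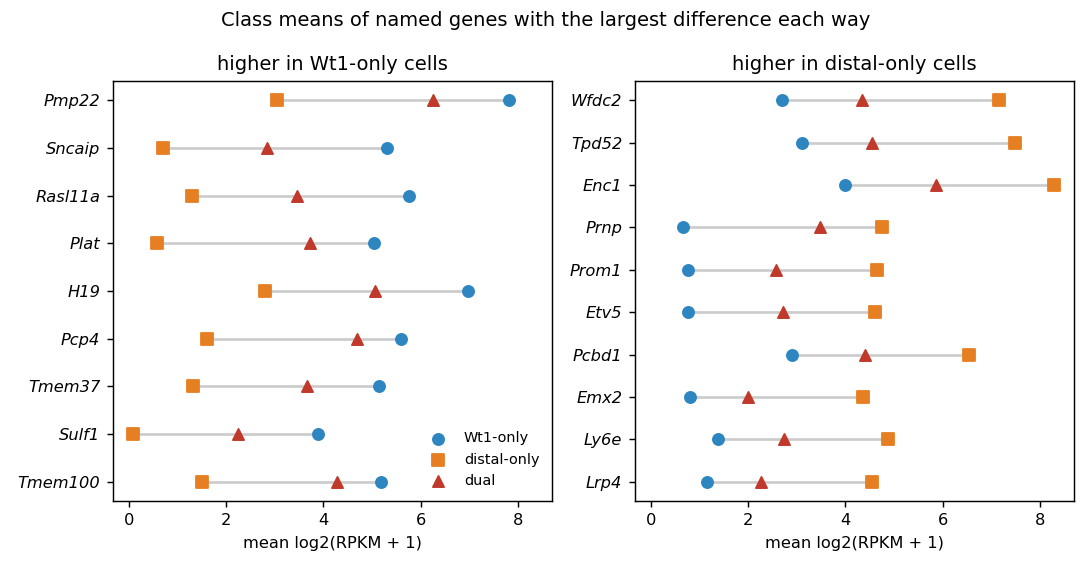
Mean log2(RPKM + 1) of each class for named genes among the 10 with the largest difference in each direction between Wt1-only (circles) and distal-only cells (squares), with dual cells as triangles. The dual mean lies between both reference means for every gene shown, a place favoured by choosing genes with the largest reference difference.

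The listed distal vesicle genes Lhx1, Ccnd1 and Jag1 were detected in every dual cell, and Lhx1 and Ccnd1 were near the distal-only level. Their presence alone does not mark the distal side, since 20, 25 and 26 of 26 Wt1-only cells had them as well. Lhx1 (chromosome 11, 84332881 to 84339036), a LIM homeobox factor needed for the renal vesicle to form its segments, was at RPKM 124, 131, 132, 91.6, 19.4, 14.4, 71.8, 153 and 285 in cells 12, 21, 22, 23, 30, 36, 41, 44 and 54. Cells 30 and 36 were below the lowest distal-only cell (33.7) and the other seven were within the distal-only range (highest 431), as were some of the Wt1-only cells (0 to 321, median 24.7). The mean log2 difference was 2.21 from Wt1-only and -0.31 from distal-only cells. Ccnd1, the G1 cyclin D1, was at 295 in cell 36 and at 459 to 1031 in the others, with a difference of 2.05 from Wt1-only and 0.43 from distal-only cells. Its Wt1-only cells ran from 0.12 to 1107 with a median of 358, so the ranges overlapped, and the difference of class medians was 1.03.

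The Notch ligand Jag1 was detected in all 9 dual cells at 57.3 to 585 (median 254), where Wt1-only cells had a median of 118 and distal-only cells of 393. Sfrp2, a secreted Wnt modulator, was found in all 9 at 65.1 to 606, with the highest values in cells 23 and 41. It was also detected in 24 of 26 Wt1-only cells. Its dual median of 149 compares with 140 in Wt1-only and 437 in distal-only cells, and its mean log2 differences were 1.41 and -0.91. The mean of Jag1 lay 1.41 above Wt1-only and 0.78 below distal-only cells on the log2 scale.

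The strongest distal markers outside the rule had lower means in dual than in distal-only cells, whose high means picked these genes. Wfdc2, a secreted protease inhibitor domain protein of epithelia, was at 333 in cell 41, 266 in cell 36, 111 in cell 21 and 79.2 in cell 22, while the other five had no more than 16.5, against a distal-only median of 253. Emx2, a homeobox factor of the early urogenital epithelium, was at 29.9 in cell 22 and at 7.97 or less elsewhere, all below the distal-only median of 39.3. The tumour protein Tpd52 was at 666 in cell 30, 316 in cell 41 and 193 in cell 23, within the distal-only range of 44.9 to 799.7, and no higher than 30.5 in the other six, below it. Etv5, an ETS factor that responds to FGF signalling, was at 161 in cell 41, 53.7 in cell 12 and 29.8 in cell 54, and at 8.22 or less in the rest. Prnp, the prion protein gene, came closest to its distal-only level of these 10 genes, with a mean difference of 2.81 from Wt1-only and -1.27 from distal-only cells, and it was highest in cell 23 (165).

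Of 27 listed distal vesicle genes, 17 could be analysed, and the dual mean exceeded the Wt1-only mean for all 17 and the distal-only mean for 4, where over all 9644 genes it did so for 5286 and 5303. Past a difference of 2 there were 2 above Wt1-only (Lhx1 and Ccnd1) and 2 below distal-only cells (Wfdc2 and Emx2). Over all genes 1.91% were above Wt1-only and 1.29% below distal-only cells. The median difference was 1.12 from Wt1-only and -0.81 from distal-only cells. The estrogen-regulated gene Greb1 had values of 108 in cell 23, 65.8 in cell 41, 54.0 in cell 30 and 26.6 in cell 12 and of at most 3.89 elsewhere, where no Wt1-only cell exceeded 22.4.

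Of 15 analysed Notch pathway genes and of 16 Wnt pathway genes, 0 differed by 2 or more from either reference class. Over all genes 1.91% were above and 0.715% below Wt1-only cells, and 2.43% above and 1.29% below distal-only cells, so lists of this size hold few or no such genes at the background share. The Notch target Hes1 was detected in all 9 dual cells, at 132 in cell 44, 57.7 in cell 54, 32.7 in cell 21 and 4.70 to 21.2 in the other six, with a difference of 1.48 from Wt1-only and -0.47 from distal-only cells. Its relative Hey1 was at 1.78 to 192 in dual cells and differed by -0.46 and 0.59. Wnt4, the signal that makes the mesenchyme epithelial, was at 205 in cell 23, 62.5 in cell 22, 10.4 in cell 36, 6.00 in cell 41 and 1.91 in cell 30, and below 1 in the other four. Lgr4, a receptor that enhances Wnt signalling, was detected in all 9 at 56.8 to 279.

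Lists of neighbouring states gave single genes past a difference of 2, to be read beside the 2.43% of all genes above and 1.29% below distal-only cells. Of 10 analysed nephron progenitor genes, Tmem100 was above distal-only cells, and Capn6, a calpain family protein, was below them by 3.04, with 58.4 in cell 41 and at most 7.04 in the remaining dual cells, against a distal-only median of 43.9. Sall1, a zinc finger factor of the progenitor and the vesicle, was found in all 9 dual cells at 3.94 to 153. Of 8 medial and proximal tubule genes, Osr2, an odd-skipped factor, exceeded distal-only cells by 2.55, with 159 in cell 23, 114 in cell 12 and 43.7 in cell 41. Of 18 genes of sulfate and heparan sulfate metabolism, Papss2 itself left out, Sulf1 and the proteoglycan Sdc1 exceeded distal-only cells by 2.15 and 3.32. Sdc1 was at 423 in cell 30, 85.9 in cell 54 and 37.8 in cell 12 and at 0 in cells 23 and 44.

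Beyond a mixture of both sides, 67 genes (0.695% of 9644) had a dual mean at least 2 above both reference means and 13 genes (0.135%) at least 2 below both. For Wt1-only cells against the other classes the counts were 17 above (0.176%) and 18 below (0.187%), and for distal-only cells 44 above (0.456%) and 34 below (0.353%). The class sizes of 9, 26 and 14 cells differ, so these counts are not on an equal footing. They also moved with single cells: without cell 44 there were 114 genes above both and without cell 30 there were 102, while without cell 41 there were 35 below both. When any 1 dual cell was left out in turn, 19 genes stayed 2 above both classes, 2 of them predicted loci, and 8 genes stayed 2 below both.

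Of the 20 listed G2/M genes, 3 were among the 67 genes above both classes, and the 12 named genes held Aurkb, Tacc3 and Cdc7, which act in cell division or replication. Aurkb (chromosome 11, 68859145 to 68865164), the Aurora kinase of the chromosomal passenger complex, was at RPKM 129, 87.3, 109, 0.75, 1537, 412, 148, 1.20 and 21.3 in cells 12, 21, 22, 23, 30, 36, 41, 44 and 54. Its median of 109 compares with 0.87 in Wt1-only and 1.32 in distal-only cells, although single cells of those classes reached 297 and 199. The mean log2 difference was 3.34 and 3.14. Tacc3, a spindle protein, was at 9.42 to 477 in dual cells (median 181) against medians of 1.55 and 16.7. Cdc7, the kinase that fires replication origins, was at 693 in cell 30, 217 in cell 12 and 213 in cell 23 but at 0 in cell 41. Cetn2, a centrosome protein that also acts in DNA repair, was at 11.5 to 1952 (median 50.8), and Cdca4, a regulator linked to E2F factors, was at 11.2 to 1046 (median 108).

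Genes of other roles were also in this group, and 5 of the 12 named genes (Cetn2, Mak16, Cdca4, Tacc3 and Gapvd1) were detected in all 9 dual cells. Mak16, which takes part in ribosome assembly, was at 29.2 to 327 (median 49.8), where 16 of 26 Wt1-only and 9 of 14 distal-only cells had it, at medians of 9.34 and 7.74. Gapvd1, a regulator of endocytic Rab proteins, was at 4.69 to 77.9 against medians of 2.64 and 3.61. Mrps18b, a subunit of the mitochondrial ribosome, had a median of 70.1 and ran from 0 in cell 54 to 547 in cell 36, with medians of 0 in both reference classes. Hyal2, a hyaluronidase, Sumf2, a homologue of the sulfatase-modifying enzyme, Ifi30, a lysosomal thiol reductase, and Ebag9, a secretion-related membrane protein, were detected in 7 or 8 of the 9 dual cells. Their mean log2 differences were 2.70 to 3.39 from both classes.

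**Figure D4:**
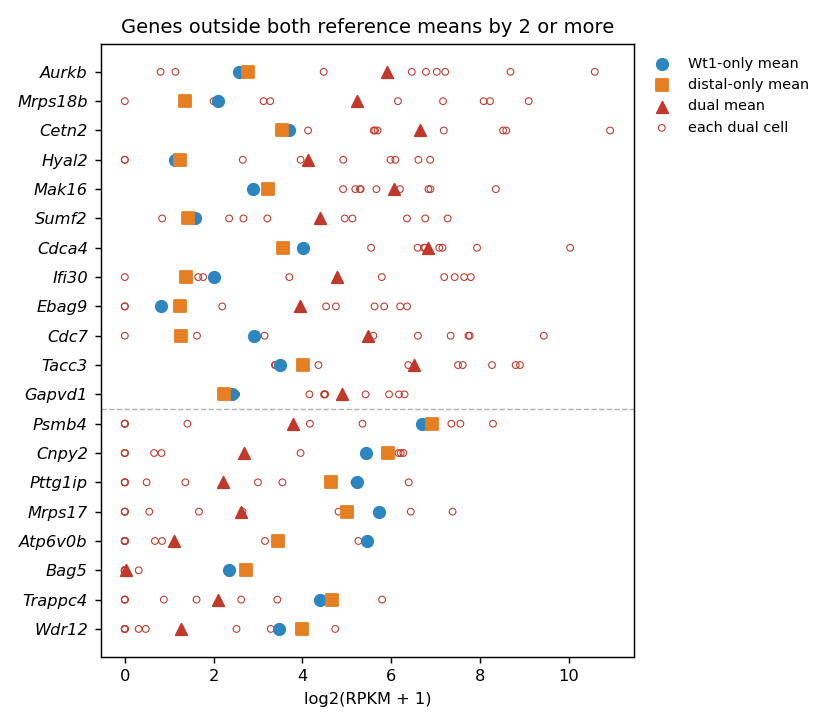
Mean log2(RPKM + 1) per class for the 12 named genes above both reference classes (upper part) and the 8 below both (lower part), with open circles for each of the 9 dual cells. The spread of the open circles is wide for most genes and narrow for Mak16, Gapvd1 and Bag5.

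The 8 genes below both classes were mostly genes of general cell functions that were listed at or near 0 in part of the dual cells. Atp6v0b, a subunit of the proton pump of acidic compartments, was at 37.4 in cell 41, 7.92 in cell 12 and below 1 in the other seven, against medians of 112 in Wt1-only and 16.5 in distal-only cells, with differences of -4.36 and -2.36. Psmb4, a proteasome subunit, was at 0 in cells 21, 23 and 30, at 1.66 in cell 44 and at 17.0 to 313 in the other five, while all 14 distal-only and 24 of 26 Wt1-only cells had it. Bag5, a co-chaperone, was detected in none of the dual cells, in 12 of 26 Wt1-only and in 7 of 14 distal-only cells. Cnpy2, Pttg1ip, Mrps17, Trappc4 and Wdr12 were detected in 3 to 5 dual cells each.

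Genes of the G2 and M phases were the listed group with the most members above Wt1-only cells. The dual mean exceeded the Wt1-only mean for 20 of 20 genes and the distal-only mean for 17 of 20 (all genes: 5286 and 5303 of 9644). Past a difference of 2 there were 7 above Wt1-only cells (all genes: 1.91%), namely Cdk1, Ccnb1, Ccnb2, Aurkb, Cdc20, Ube2c and Nusap1. Of these, 3 (Aurkb, Ccnb1 and Nusap1) were also past it above distal-only cells (all genes: 2.43%). The median difference over the list was 1.64 from Wt1-only and 1.20 from distal-only cells, where all genes had medians of 0.09 and 0.10. Without cell 41 there were 5 genes above Wt1-only cells and without cell 12 there were 10.

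The promoters of these genes are shown because a short element, the cell cycle homology region TTTGAA, is known from genes that are expressed late in the cycle. Windows from 100 bases before to 30 after the annotated start were taken from RefSeq promoter sequences on build GRCm38.p6, printed on the strand of the gene with TTTGAA or its reverse complement TTCAAA in capitals. A window was held for 17 of the 20 listed genes and for 6 of the 7, Aurkb being the one without. The windows are chr10:69352883-69353012 (minus strand) for Cdk1, chr9:70421525-70421654 (minus) for Ccnb2, chr4:118437314-118437443 (minus) for Cdc20, chr2:164769829-164769958 (plus) for Ube2c, chr13:100786457-100786586 (minus) for Ccnb1 and chr2:119618198-119618327 (plus) for Nusap1.
Cdk1: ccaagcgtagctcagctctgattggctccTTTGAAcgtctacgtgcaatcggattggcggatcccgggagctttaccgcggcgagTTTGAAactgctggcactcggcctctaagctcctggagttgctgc
Ccnb2: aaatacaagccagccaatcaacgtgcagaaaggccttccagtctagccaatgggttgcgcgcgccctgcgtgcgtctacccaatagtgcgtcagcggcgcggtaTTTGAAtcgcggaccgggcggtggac
Cdc20: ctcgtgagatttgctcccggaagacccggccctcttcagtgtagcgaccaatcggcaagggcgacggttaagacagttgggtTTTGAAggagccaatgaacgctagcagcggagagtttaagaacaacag
Ube2c: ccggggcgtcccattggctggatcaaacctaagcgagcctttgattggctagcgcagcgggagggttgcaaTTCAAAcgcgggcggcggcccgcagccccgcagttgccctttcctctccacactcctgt
Ccnb1: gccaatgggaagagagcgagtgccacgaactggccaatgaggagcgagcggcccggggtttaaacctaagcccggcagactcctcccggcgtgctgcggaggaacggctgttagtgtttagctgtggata
Nusap1: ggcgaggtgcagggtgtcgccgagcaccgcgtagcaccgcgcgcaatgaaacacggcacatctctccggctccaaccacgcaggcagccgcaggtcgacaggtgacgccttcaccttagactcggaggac

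On either strand, TTTGAA stood in 4 of these 6 windows, in 9 of the 17 windows of the list (52.9%) and in 7.15% of all 32851 windows of that length. Cdk1 held it in 2 places. Its absence from the windows of Ccnb1 and Nusap1 says only that these letters are not in that stretch.

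The cells that carried the G2/M genes can be named. Ccnb2, cyclin B2, was at RPKM 458 in cell 21, 412 in cell 23, 396 in cell 41, 284 in cell 36, 236 in cell 22, 198 in cell 54 and 66.9 in cell 30, and at 5.10 in cell 44 and 3.84 in cell 12. The median Wt1-only cell had 0.80 and the median distal-only cell 119, and the dual cells overlapped with both classes, whose highest cells had 319 and 815. Cdk1, the mitotic kinase, was at 7.24 in cell 12 and at 50.8 to 331 in the other eight, against medians of 3.54 and 49.3. Ccnb1, cyclin B1, was at 1176 in cell 36, 748 in cell 41, 583 in cell 44 and 327 in cell 22, but at 2.93 in cell 30 and 0.43 in cell 12. Nusap1, which binds spindle microtubules, was highest in cell 44 (278) and at 0 in cell 12, and the anaphase activator Cdc20 was highest in cell 22 (174) and at 0 in cells 12 and 44.

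Averaged over the 20 genes, the mean log2(RPKM + 1) was 6.94 in cell 36, 6.14 in cell 41, 5.62 in cell 22, 4.89 in cell 21, 4.32 in cell 54, 4.2 in cell 30, 3.98 in cell 23, 3.45 in cell 44 and 1.38 in cell 12. The medians were 2.02 in Wt1-only (range 0.22 to 6.51) and 3.48 in distal-only cells (range 0.53 to 6.70), and 8 and 7 of the 9 dual cells lay above them. The ranges overlapped, and single cells of both reference classes were as high as most dual cells. Across the 49 cells this mean and the number of detected genes had a Spearman rho of 0.63, as a description of points that share library and depth. With the G2/M mean as a covariate, an alternative chosen after seeing the data, 35 genes were above both classes, 30 of them among the 67, and 9 of the 12 named genes stayed. Those lost were Aurkb (1.83 from Wt1-only cells), Cdca4 (1.81) and Tacc3 (0.77), and none of the 7 G2/M genes stayed past 2. The covariate is the mean of the list that holds these 7 genes, Aurkb among them. Their fall is therefore built in and tells nothing about them. With the number of detected genes as covariate there were 39, of which 34 were among the 67, and 4 of the 7 G2/M genes stayed 2 above Wt1-only cells. The list's median differences were then 0.98 and 0.65, and against distal-only cells Ccnb1 (1.02) and Nusap1 (1.85) were no longer past 2 while Aurkb was (2.43).

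**Figure D5:**
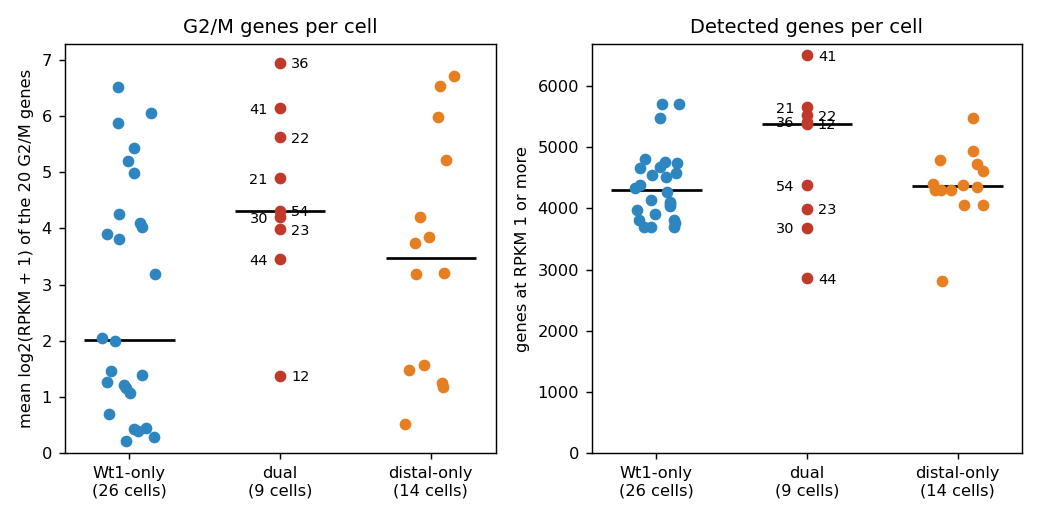
Mean log2(RPKM + 1) of the 20 G2/M genes (left) and number of genes at RPKM 1 or more (right) per cell, by class, with a line at each median and the dual cells numbered. Of the dual cells, 8 lie above the Wt1-only median of the G2/M genes and 6 above its median of detected genes, and both measures overlap between all 3 classes.

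Of 20 S phase genes, 1 was past 2 above distal-only cells (all genes: 2.43%) and 1 past 2 below Wt1-only cells (all genes: 0.715%). They were Rrm2, a subunit of ribonucleotide reductase, with a difference of 2.29 from distal-only cells, and Mcm2, of the replicative helicase, with -2.20 from Wt1-only cells. Rrm2 was detected in all 9 dual cells, at 14.4 in cell 44, 1342 in cell 54 and 125 to 822 in the rest. Mcm2 was at 109 in cell 21 and 74.4 in cell 41 and at 0 in cells 22, 23 and 44. The dual mean exceeded the Wt1-only mean for 7 and the distal-only mean for 14 of the 20 genes, and the median difference of the list was -0.06 and 0.49 (all genes: 0.09 and 0.10).

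Markers of macrophages, endothelium and erythroid cells were low in most dual cells, while ureteric bud and stroma lists held genes at high levels in single cells. The summed RPKM of 13 macrophage genes was 0 to 69.3 in dual, 0 to 147 in Wt1-only and 0 to 182 in distal-only cells. Its median was higher in dual cells, at 6.36 against 2.81 in Wt1-only and 3.01 in distal-only cells. The median number of these genes detected was 2 in dual cells and 1 in each reference class. The summed RPKM of the endothelial genes was at most 12.7 in dual cells, and the single erythroid gene measured was at 0 in all 9. Of the macrophage genes, 2 were at 0 in every dual cell, the complement gene C1qb was highest in cell 41 (38.0), and Fcer1g (45.6) and Cd68 (22.6) in cell 12. In the stroma list, whose sum was 0.25 to 1782 in dual cells (median 123) and had medians of 93.4 in Wt1-only and 149 in distal-only cells, the retinoic acid synthase Aldh1a2 exceeded Wt1-only cells by 3.09 and was at 1779.6 in cell 30, but distal-only cells had it as well (median 137). Of the other stroma genes, 4 of the 11 measured were at 0 in all dual cells.

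In the ureteric bud list, Cdh16, a kidney cadherin, exceeded Wt1-only cells by 2.69, with 413 in cell 36, 173 in cell 12, 146 in cell 21 and 53.0 in cell 41, and the list's sum was 0 to 479 in dual (median 58.8), 0 to 204 in Wt1-only (median 3.98) and 0.36 to 404 in distal-only cells (median 33.9). The homeobox gene Hoxb7 was at 164 in cell 21 and 110 in cell 12, the keratin Krt18 at 144 in cell 23 and the transcription factor Tfcp2l1 at 58.2 in cell 36. The mural list summed to 0 to 89.5 in dual cells against up to 1005 in Wt1-only cells. Among 12 analysed genes of the immediate early and stress response, Btg2, an antiproliferative gene, exceeded distal-only cells by 2.74, at 160 in cell 21, 107 in cell 36 and 96.3 in cell 12. The part of other cell types in the values of the dual cells was not tested.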

How the data were processed

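Single cells from postnatal day 4 kidneys were profiled on a Fluidigm C1 chip with the SMARTer and Nextera XT kits, per the labels' protocols, without strand or molecular identifiers. The authors deposited RPKM values of 12087 genes in 57 cells, per the file headers, and a second table with RPKM values of 28 cells and a signed proximal against distal fold, used here as a score with an unstated formula. TopHat 1.4.1, DESeq and build mm9 appear in the submitters' processing notes with no role given. Read totals are not given, so only relative depth is stated. It was taken from the most common ratio of low values between cells, and 99.9% of cell pairs agreed within 0.01.

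Classes, gene lists and members were chosen with earlier results of these data known. Values were analysed as log2(RPKM + 1) with Python 3.11.15, pandas 2.3.3 and scipy 1.17.1, after checks on simulated data. The defining genes were left out of all comparisons. Genes were kept at a mean RPKM of 1 or more and detection in at least 5 of 49 cells, and a class difference of 2 or more was called. Named are the defining genes, the first 12 genes above and 8 below both reference classes that stayed so without any 1 dual cell, the 10 most separated genes each way, and in each of 17 lists (298 entries, 239 measured) the 4 members detected in most dual cells or past the difference, besides listed members given to complete a group. Lists covered proximal and podocyte, distal vesicle, tubule, progenitor, renal vesicle, Notch, Wnt, sulfate, S phase, G2/M, stress, macrophage, stroma, endothelium, erythroid, ureteric bud and mural genes. Genes absent from the table were not analysed here. Some genes picked by this rule are not reported here. No doublet caller was run, and chambers were inspected under the microscope, per the labels. Reads shared with near-identical copies or antisense genes cannot be told apart. Alternatives covered the pseudocount, filter, difference, thresholds, scaling, class summary, genes of the rule and each cell left out.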

Additional observations from a re-analysis of the deposited data

Results flagged for a closer look

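Pax8, which the rule asks of reference cells but not of dual cells, was at RPKM 828.5 in dual cell 44. By Dixon's ratio on RPKM at its 95% limit, that was far from the next highest of the 9 dual cells (416). On the log2 scale used elsewhere, the wider gap is that of cell 54 at 15.8 below the next lowest cell at 264. Chance passes that limit in about 1 of 20 groups of normally distributed values, and several measures were looked at. The same ratio, taken of depth, detected genes, the scores and the cell cycle means, singled out no other dual cell.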

How the results depend on the processing

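The count of dual cells fell from 9 to 5 with a threshold of 50 and to 5 without Papss2 in the rule. The 257 separated genes, 67 genes above both classes and 13 below became 1001, 353 and 97 with a pseudocount of 0.1, 56, 4 and 1 with a pseudocount of 5, and 827, 489 and 97 with class medians. With a difference of 1 they were 1858, 678 and 241, with 54.0% of separated genes nearer Wt1-only, and with a difference of 3 they were 44, 2 and 0, with 77.3%. At a threshold of 10, 8 of 12 dual cells and 70.1% of genes were nearer Wt1-only, with 37 genes above and 6 below both classes. At a threshold of 50, 4 of 5 dual cells and 65.9% of genes were nearer Wt1-only, with 164 genes above and 101 below both classes. Leaving out cells beyond the range of detected genes (dual 41 and distal-only 52) gave 36 below. The covariates added after seeing the data gave 35 above and 27 below for the G2/M mean, and 39 above and 43 below for detected genes. With the G2/M mean, Ube2c turned to -0.32 from Wt1-only cells, a fall that is built in because Ube2c is part of that mean. Leaving out each dual cell gave 69 to 114 above (highest without cell 44, 102 without cell 30), 10 to 35 below (highest without cell 41, and 20, 23, 26 and 20 without cells 12, 21, 22 and 36), 4 to 5 cells and 56.0 to 65.4% of genes nearer Wt1-only. Leaving out each reference cell gave 53 to 75 genes above both and 253 to 307 separated genes. Of 5040 recomputed differences of named genes, 4996 moved by less than 1 SD over dual cells, 43 moved more and 1 changed sign. That SD is wide, and most alternatives leave out only 1 cell, so these counts are no measure of robustness. For Ebag9 the SD was 2.56. Its difference from distal-only cells fell from 2.70 to 1.60 with a pseudocount of 5, which is within that SD but below the cut of 2. The cause of these shifts was not tested. No paired analysis was possible because all cells belong to 1 group from 1 pool. Low relative depth limits most the values of cell 30.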
